A study of Mus musculus with 18 samples.

Results

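Fibroblasts of the intestinal wall are told apart by a small set of surface and nuclear markers. Among them, 7 genes were followed here in RNA from sorted mouse cells: Cd34, Pi16, Dpp4, Ly6a, Ackr4, Cd81 and Sox6. They were taken by symbol from the 23238 symbols of the count tables. In intestinal stromal cells (IntSCs) labelled KO, Dpp4 was higher than in WT (7.01 to 14.3 against at most 0.271 CPM, tag counts scaled to equal library size) and Cd34 was lower by a factor of 2.07, while the other 5 genes did not pass the threshold. Lymphatic endothelial cells (LECs) of the lacteals held less Cd34, Pi16, Ly6a, Ackr4 and Sox6 than IntSCs in both genotypes, and more Cd81.

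The study asked how loss of Lats1 and Lats2, the Hippo pathway kinases that restrain YAP and TAZ, acts in Pdgfrb-expressing stroma and on the lacteals beside it. All mice were adults of strain C57BL/6J and carried the transgenes that the labels write as PDGFRb+-CreERT2-Tomato+, so by the labels the controls (WT) held the Cre and the Tomato reporter as well, and the KO mice were Lats1f/f Lats2 f/f in addition. The study's methods define controls in general as floxed littermates without the Cre, while its supplement describes reporter mice as the controls of these sorts, as the labels do. Per the study's methods the Cre is induced by tamoxifen. The Pdgfrb promoter is active in fibroblasts, smooth muscle cells and pericytes, so in KO mice the deletion was aimed at the stroma and not at the LECs. The serosa and the muscle layer were stripped off first. IntSCs were sorted by tdTomato after depletion of cells with CD45, CD326 or CD31, and LECs were sorted by CD31 and podoplanin, which makes Pecam1 and Pdpn sort genes. There were 6 libraries of WT IntSCs, 5 of KO IntSCs, 4 of WT LECs and 3 of KO LECs. The study's supplement counts mice per group in numbers that match the libraries and says that they came from several independent experiments. No label says which library came from which mouse or experiment, so a batch of that kind could not be examined.

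Fibroblast niches differ by depth in the wall. Pi16, Dpp4 and Ly6a mark adventitial, progenitor-like fibroblasts around vessels, and Cd34 marks these as well as other fibroblasts near the crypts and blood endothelium. Ackr4 and Cd81 mark the fibroblasts below the crypts that secrete stem cell factors (trophocytes), and Sox6 marks telocyte-like fibroblasts directly under the epithelium.

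Total counts ranged from 5361250 to 10549233 per library, and 3 counts, the floor used for a gene with no tag, came to 0.284 to 0.560 CPM. The kit's reads carry no molecular identifiers used here, so PCR duplicates count repeatedly and such floors and intervals reflect counting error alone. In IntSCs, Lats1 averaged 17.5 ± 10.3 CPM (SD) in WT against 16.0 ± 3.28 CPM in KO, and Lats2 averaged 72.8 ± 23.7 against 114 ± 20.3 CPM. Neither passed (edgeR adjusted p = 0.987 and 0.252), and since tags come from the 3′ end of a transcript they cannot check a deletion of exons elsewhere. KO therefore stands below for the libraries labelled KO. The defining LEC markers separated the sorted populations, with a summed level over 10 genes of 9333 to 15535 CPM in LECs, against 254 to 428 CPM in WT IntSCs and 460 to 546 CPM in KO IntSCs, ranges that did not overlap between the genotypes. In IntSCs most of this sum was Pdpn, at 239 CPM of a mean sum of 338 CPM in WT and 329 of 501 CPM in KO. Of the 9 LEC genes tested in IntSCs, 5 were estimated higher in KO and none passed. The part of LEC RNA in the IntSC sums was not tested. The 6 pan-fibroblast genes (Col1a1, Col1a2, Col3a1, Col6a1, Dcn, Lum) summed to 6434 to 15004 CPM in IntSCs and 283 to 1952 CPM in LECs. One WT LEC library, replicate 1, stood apart with 1952 CPM against 567 to 628 CPM in the other 3, and results that rest on it are given with and without it. In sorted bulk RNA, fewer cells of a type and less RNA per cell cannot be told apart, and this holds for each difference below.

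The 7 genes were compared first between KO and WT IntSCs. Of the 7, 2 passed the threshold (edgeR adjusted p under 0.05), 1 in each direction, where 1.47% of the 12421 genes tested passed, 0.853% of them higher and 0.62% lower. The same 2 genes had ranges that did not overlap between the genotypes, as did 2.83% of all genes tested (1.63% higher and 1.2% lower in KO). Over the 7 genes the median log2 fold change was 0.25, against 0.00 over every gene tested.

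**Figure D1:**
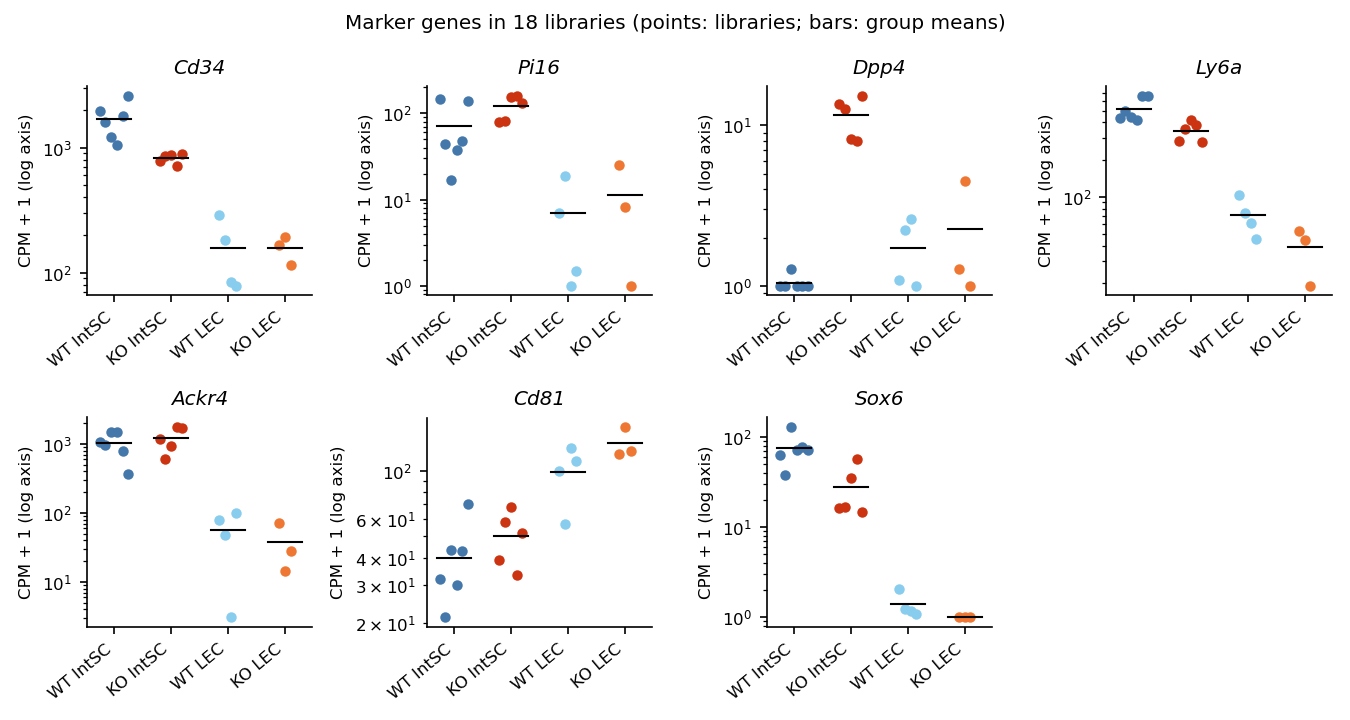
Level of each marker gene (CPM + 1, log axis) in 18 libraries of the 4 groups; each point is a library and each bar a group mean. Dpp4 in the 5 KO IntSC libraries lay above all 6 WT IntSC libraries, and Cd34 in them lay below all 6.

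Cd34, a sialomucin of the cell surface, was the most abundant of the 7 in WT IntSCs, and its mean ranked 49th of 16481 genes with a tag there (3′ tag counts do not grow with transcript length). It ran from 1043 to 2610 CPM over the 6 WT IntSC libraries, with a median of 1710 CPM. KO IntSC libraries 1 to 5 held 784, 859.7, 875, 712 and 888 CPM. The ranges did not overlap, and the KO libraries lay close together, with a coefficient of variation of 9.04% against 33.0% in WT. The log2 fold change was -1.05 ± 0.20 (± SE, adjusted p = 0.00688 by edgeR), and leaving out any one of the 11 libraries gave -1.16 to -0.88 with adjusted p of 0.00242 to 0.0268.

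The summed pan-fibroblast level was also lower in KO IntSCs, 6434 to 10912 CPM against 10204 to 15004 CPM in WT, and all 6 of its genes had a negative log2 fold change, with Col3a1, a fibrillar collagen, past the threshold (-0.92, edgeR adjusted p = 0.0438). Per 1000 tags of this list, Cd34 ran from 72.4 to 256 in WT and from 66.8 to 134 in KO, so the ranges overlapped. With the library size set to that list, which raised the median over every gene to 0.50 on the log2 scale, Cd34 was at -0.58 and no longer passed (adjusted p = 0.272). It also missed the threshold when all 4 groups shared 1 fit (log2 fold change -1.05, adjusted p = 0.191). Cd34 is found on blood endothelium too, whose 7 markers summed to 323 to 530 CPM in WT and 405 to 1053 CPM in KO IntSCs, with 6 of the 7 estimated higher and none past the threshold. Of the 7, 2 passed as higher in WT LECs than in WT IntSCs, Emcn (505 against 8.47 CPM) and Cldn5 (1277 against 12.3 CPM). The rest were estimated lower there. Esam gave 159 CPM of the mean sum of 425 CPM in WT IntSCs and 295 of 662 CPM in KO. The sum is thus not particular to blood endothelium. The part of the fibroblast share of the sort in the Cd34 difference was not tested beyond these values.

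Dpp4 encodes CD26, a membrane peptidase that also sits on the brush border of enterocytes and on T cells. In WT IntSCs 5 of the 6 libraries held no tag, and the remaining library (replicate 3) held 2 tags, or 0.271 CPM. KO IntSC libraries 1 to 5 held 12.6, 11.6, 7.21, 7.01 and 14.3 CPM, from 96, 85, 60, 47 and 108 tags. Every KO library thus lay above every WT library. Pooled over libraries, 396 tags against 2 gave a ratio of 201 at equal depth, with an exact 95% interval of 55.3 to 1667 for counting error only. The fitted log2 fold change was 7.28 ± 1.28 (± SE, adjusted p = 0.00362 by edgeR), a value that depends on the prior count because WT was near 0. Leaving out any one library gave adjusted p of 0.00425 to 0.0168, and with all 4 groups in 1 fit the call was lost (adjusted p = 0.0961).

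Epithelial and leukocyte markers were set beside Dpp4 because those cells carry it. The 7 enterocyte genes (Epcam, Cdh1, Vil1, Alpi, Fabp2, Krt8, Krt20) summed to 15.3 to 107 CPM in KO IntSCs (median 35.7 CPM). In WT the median was 5.42 CPM, and 5 of the 6 libraries held at most 16.5 CPM, with 103 CPM in replicate 6. Alpi and Krt20 had no tag in any WT IntSC library. None of the 4 of these genes that could be tested passed, although the keratin Krt8 ran from 1.44 to 20.6 CPM in KO and from 0 to 3.16 CPM in WT, with 4 of 5 KO libraries above all WT libraries (edgeR adjusted p = 0.206). Fabp2, a fatty acid binding protein of enterocytes, averaged 0.993 and 0.0443 CPM and was not tested. The enterocyte sum of WT IntSC replicate 6, in which no Dpp4 tag was found, was mostly Cdh1 (71.0 CPM) and Epcam (19.4 CPM), and KO IntSC replicate 1, with 15.3 CPM, held 12.6 CPM of Dpp4. The 5 Paneth cell genes (Lyz1, Mmp7, Ang4, Itln1, Mptx2) did separate the genotypes, with 25.3 to 70.0 CPM in KO and 0.152 to 6.96 CPM in WT. One of the 2 that could be tested, Lyz1, a lysozyme, was higher in KO (20.8 against 0.213 CPM, edgeR adjusted p = 0.000580), though its reads may be shared with the close paralog Lyz2. The same Paneth genes summed to 11.8 to 67.9 CPM in KO LECs, in which Dpp4 was at 0.279, 3.51 and 0 CPM in replicates 1 to 3 beside Paneth sums of 53.2, 11.8 and 67.9 CPM. The 7 leukocyte genes summed to 4.84 to 17.4 CPM in KO and 0.337 to 22.0 CPM in WT IntSCs, and Cd3e, which marks T cells, had no tag in any KO IntSC library.

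**Figure D2:**
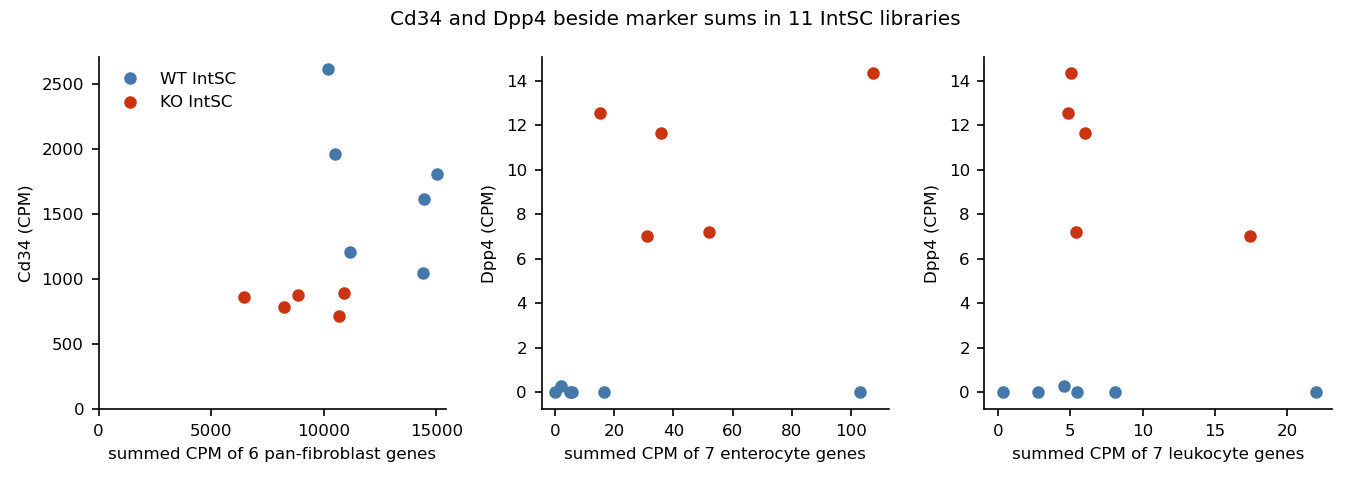
Cd34 against the summed pan-fibroblast genes and Dpp4 against the summed enterocyte and leukocyte genes (CPM) in 11 IntSC libraries, each point a library. The KO libraries held 7.01 to 14.3 CPM of Dpp4 across enterocyte sums of 15.3 to 107 CPM. The WT library with an enterocyte sum of 103 CPM, mostly Cdh1 and Epcam, held none. The Paneth gene sums, not drawn, were 25.3 to 70.0 CPM in KO and 0.152 to 6.96 CPM in WT IntSCs. An epithelial part in the Dpp4 difference was not tested.

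Pi16, a surface-anchored peptidase inhibitor of adventitial fibroblasts, ran from 16.0 to 144 CPM in WT IntSCs with a median of 44.8 CPM. In KO IntSC libraries 1 to 5 it was 78.2, 80.1, 152, 159 and 129.9 CPM. The KO libraries all lay above 4 of the 6 WT libraries, but WT replicates 1 and 6 reached 144 and 138 CPM and the ranges overlapped. The log2 fold change was 0.77 ± 0.47 (± SE, adjusted p = 0.677 by edgeR).

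Ly6a, or Sca-1, a lipid-anchored surface protein of progenitor-like fibroblasts and endothelium, ran from 419.8 to 661 CPM in WT IntSCs with a median of 467 CPM. KO IntSC libraries 1 to 5 held 281, 352, 421, 381 and 274 CPM. In KO, 4 of the 5 libraries lay below every WT library, and replicate 3 exceeded the lowest WT library. The log2 fold change of -0.60 ± 0.18 did not pass (SE, edgeR adjusted p = 0.136), although DESeq2 gave an adjusted p of 0.0393, and with the library size set to the pan-fibroblast list it was -0.09. Ly6a belongs to a family of closely related genes and shared reads may have been split among them, since the handling of reads with several matches is not given in the sources used here.

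Ackr4, an atypical receptor that takes up the chemokines CCL19 and CCL21 without signalling, marks submucosal fibroblasts. It ran from 365 to 1490.4 CPM in WT IntSCs with a median of 1010 CPM, and KO IntSC libraries 1 to 5 held 1155, 598, 919, 1752 and 1672 CPM. The genotypes overlapped widely, with a log2 fold change of 0.25 ± 0.33 (± SE, adjusted p = 0.921 by edgeR). Cd81, a tetraspanin, ran from 20.3 to 69.6 CPM in WT IntSCs with a median of 36.3 CPM, against 37.8, 57.4, 66.9, 32.4 and 50.9 CPM in KO libraries 1 to 5. All 5 KO libraries lay within the WT range, with a log2 fold change of 0.33 ± 0.31 (mean ± SE, adjusted p = 0.865 by edgeR). Neither trophocyte marker therefore differed detectably between genotypes.

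Sox6, a transcription factor of the SoxD group, ran from 37.1 to 127 CPM in WT IntSCs with a median of 70.8 CPM. KO IntSC libraries 1 to 5 held 15.4, 15.9, 33.8, 56.4 and 13.7 CPM. In KO, 4 of the 5 libraries lay below the whole WT range, and replicate 4 stood within it. The log2 fold change was -1.45 ± 0.38 (± SE, adjusted p = 0.0614 by edgeR), just short of the threshold. DESeq2, limma-voom and the fit without a filter beyond 1 read gave adjusted p of 0.0127, 0.0233 and 0.0350. Without KO IntSC replicate 4 the adjusted p was 0.00711 and without WT IntSC replicate 2 it was 0.0408, whereas the other 9 single omissions and the fit of all 4 groups (0.579) did not pass.

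Other genes of the same niches were described from lists made with earlier results of these data known. Of 12 further adventitial genes, all tested, 3 rose and 1 fell in KO IntSCs, and their median was 0.16 on the log2 scale. Anxa3, an annexin, rose from 7.42 to 56.3 CPM in the mean (log2 fold change 2.93 ± 0.52, edgeR adjusted p = 0.00362). It was also higher in KO LECs, at 35.6 CPM against 7.92 CPM in WT LECs (edgeR adjusted p = 0.799). The LEC difference did not pass, though the ranges did not overlap, as for 9.93% of the genes tested in LECs. Whether the rise of Anxa3 is particular to the stroma is therefore not shown. Ackr3, a scavenger receptor for CXCL12, rose from 31.0 to 72.8 CPM (1.24 ± 0.27, adjusted p = 0.0230), and Ly6c1, a relative of Ly6a, rose from 113 to 208 CPM (0.87 ± 0.21, adjusted p = 0.0390). Col15a1, a collagen of the basement membrane zone, fell from 314 to 68.5 CPM (-2.19 ± 0.19, adjusted p = 1.18e-06). Genes of this list thus moved both ways in IntSCs, as Dpp4 and Cd34 did. Ackr3 is also a gene of LECs, at 491 CPM in WT LECs, and some endothelial markers were higher in the means of KO IntSCs. Pecam1 averaged 88.1 CPM in KO and 37.7 CPM in WT (edgeR adjusted p = 0.101), Sox17 46.5 and 18.4 CPM (adjusted p = 0.174) and Esam 295 and 159 CPM (adjusted p = 0.0598). Of the genes tested, 5 of 9 LEC genes and 6 of 7 blood endothelial genes were estimated higher in KO IntSCs. The LEC genes Ccl21a, Reln, Mmrn1 and Lyve1 were estimated lower (log2 fold changes -0.514, -0.695, -0.307 and -0.0226). The blood endothelial gene Vwf was also estimated lower (-0.798). The part of endothelial RNA in the Ackr3 and Ly6c1 differences was not tested.

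None of the 7 trophocyte genes passed, and all 7 had negative log2 fold changes with a median of -0.51, where that of the pan-fibroblast list was -0.62. Sfrp1, a Wnt antagonist, had the smallest p among them (-0.74 ± 0.19, edgeR adjusted p = 0.0528), followed by the ligand Wnt2b (-0.63 ± 0.27, adjusted p = 0.405). The 7 genes summed to 1748 to 2382 CPM in WT and 1005 to 1597 CPM in KO IntSCs, ranges that did not overlap. Most of that sum was Sfrp1, with means of 1577 CPM in WT and 945 CPM in KO. The BMP antagonist Grem1 was at 63.8 ± 23.3 CPM in WT and 50.8 ± 15.4 CPM in KO IntSCs (SD, edgeR adjusted p = 0.850). Of 9 telocyte genes 1 fell, Tnc, the matrix glycoprotein tenascin C (-0.99 ± 0.19, edgeR adjusted p = 0.00859), and the median was -0.03. Pdgfra, the receptor that is high in telocytes, was at 383 ± 115 CPM in WT and 374 ± 57.0 CPM in KO (SD, edgeR adjusted p = 0.987). The ligand Bmp7 ran from 29.2 to 81.4 CPM in WT and from 21.4 to 36.3 CPM in KO (edgeR adjusted p = 0.267), and the transcription factor Foxl1 at 1.33 ± 1.64 and 3.07 ± 3.65 CPM (SD, adjusted p = 0.913). Tnc was the exception in a list whose other tested genes did not pass.

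A further list held markers that the study gives for villus fibroblasts, chosen in work on the same genotypes and so not independent of them. None of these 8 genes passed, 4 had positive and 4 negative log2 fold changes, and the median was 0.08. The smallest p fell to Shisa3 (-0.91 ± 0.33, edgeR adjusted p = 0.261) and Fosb, an immediate early gene (0.59 ± 0.25, adjusted p = 0.416). Pdgfrb, the receptor whose promoter drives the Cre, was at 484 ± 163 CPM in WT and 878 ± 187 CPM in KO IntSCs (SD), with ranges that did not overlap and an edgeR adjusted p of 0.0614. Of the 6 pericyte markers only Kcnj8, a potassium channel subunit, passed, and it fell (-1.41, edgeR adjusted p = 0.0472). Abcc9 was estimated lower too (-1.21, edgeR adjusted p = 0.0556), with all KO libraries below all WT libraries, as for 1.2% of all genes tested. In the same list 2 genes were estimated higher, among them Notch3 (0.75, adjusted p = 0.149), and the median was -0.89. The list summed to 242 to 457 CPM in WT and 219 to 504 CPM in KO IntSCs. Kcnj8 was not particular to pericytes here, at 105 CPM in WT LECs against 36.0 CPM in WT IntSCs. No smooth muscle marker of 6 passed.

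**Figure D3:**
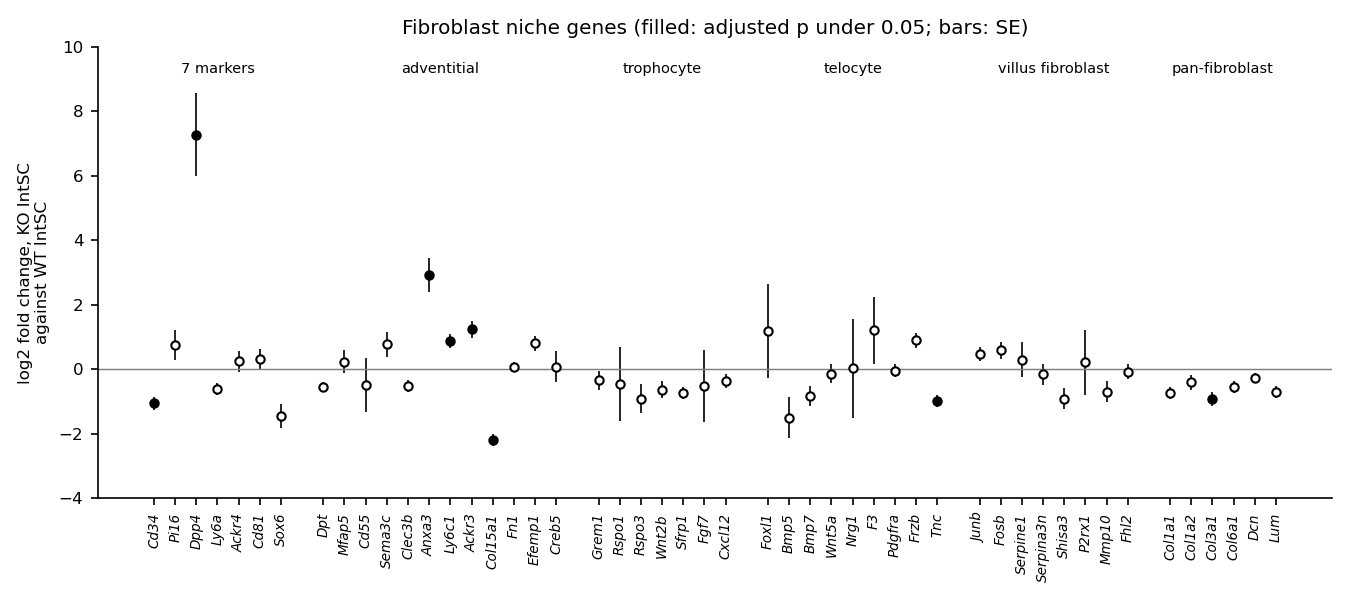
Log2 fold change (KO IntSC against WT IntSC, edgeR) of the 7 markers and of the genes of 5 niche lists, with bars of 1 SE and filled points past an adjusted p of 0.05. Dpp4 lies at 7.28 and Col15a1 at -2.19, with the 7 trophocyte genes all below 0.

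The promoters of Cd34 and Dpp4 are shown because these were the genes that passed, in opposite directions, after loss of kinases whose targets YAP and TAZ act through TEAD factors. For TEAD the study searched the letters GGAAT upstream of Vegfc. By ChIP-qPCR in mouse embryonic fibroblasts it also reported TEAD binding there, at a region farther from the start than the windows used here reach. RefSeq (GRCm38.p6) had a promoter for 6 of the 7 genes, all but Ly6a. The 250 bases before the start of Cd34 (chr1:194938571-194938820, plus strand) and of Dpp4 (chr2:62412232-62412481, minus strand) read 5′ to 3′ on the strand of each gene, with GGAAT and its reverse complement ATTCC in capitals:
Cd34: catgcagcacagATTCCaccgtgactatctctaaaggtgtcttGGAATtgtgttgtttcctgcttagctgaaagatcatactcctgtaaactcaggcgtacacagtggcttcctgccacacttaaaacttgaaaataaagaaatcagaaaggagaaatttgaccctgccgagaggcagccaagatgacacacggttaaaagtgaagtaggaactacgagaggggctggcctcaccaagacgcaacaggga
Dpp4: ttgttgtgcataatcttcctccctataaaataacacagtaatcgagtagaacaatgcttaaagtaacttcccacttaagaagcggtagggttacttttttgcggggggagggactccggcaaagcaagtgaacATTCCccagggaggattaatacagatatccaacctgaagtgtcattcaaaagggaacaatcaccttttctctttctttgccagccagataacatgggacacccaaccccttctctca
Cd34 held an ATTCC that began 238 bases and a GGAAT that began 207 bases before the start, and Dpp4 held 1 ATTCC that began 117 bases before it, there as part of the longer CATTCC. Either orientation of GGAAT occurred in 34.2% of 32851 promoter windows of this length and either orientation of GGAATG in 12.6%, the longer word overlapping the shorter. Pi16, Ackr4 and Cd81 held neither orientation in their windows, and of the 6 Sox6 starts 3 did. These matches are letters in a window and no binding was measured here.

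In the annotation (GENCODE vM21, GRCm38), Cd34 lies on chromosome 1 from 194938819 to 194961279 (plus strand) and overlaps the antisense gene Gm16897, which was at 4.27 CPM in WT and 1.07 CPM in KO IntSCs. Dpp4 lies on chromosome 2 from 62330073 to 62412231 (minus strand) and overlaps the antisense gene Gm13561. Sox6 lies on chromosome 7 from 115470872 to 116038796 (minus strand) and Cd81 on the same chromosome from 143052739 to 143067934 (plus strand). Pi16 lies on chromosome 17 from 29317680 to 29330593 (plus strand), Ly6a on chromosome 15 from 74994877 to 74998031 (minus strand) and Ackr4 on chromosome 9 from 104084157 to 104126933 (minus strand). Ackr4 overlaps Acad11 on the other strand, which was counted at 3.23 CPM in WT and 3.47 CPM in KO IntSCs. The sources do not say whether counting used the strand, and without it reads from overlapping genes cannot be told apart.

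LECs of KO mice were then compared with LECs of WT mice, to ask whether stromal deletion changed these genes in neighbouring cells outside the Cre's target. None of the 6 genes that could be tested passed, where 0.0658% of 10639 genes did (0.0282% higher and 0.0376% lower). At an unadjusted p under 0.05, 837 of those genes passed, and DESeq2 called 309 genes but none of the 7. Cd34 was at 286, 182, 83.4 and 77.4 CPM in WT LEC libraries 1 to 4 and at 165, 192 and 114 CPM in KO LEC libraries 1 to 3. The genotypes overlapped, with a log2 fold change of 0.07 ± 0.44 (± SE, adjusted p = 0.9999 by edgeR). Without WT LEC replicate 1, the library with the high pan-fibroblast sum, it was 0.52 (adjusted p = 0.9996).

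Ly6a was at 102, 72.3, 60.2 and 44.3 CPM in WT and 51.7, 43.7 and 17.9 CPM in KO LECs, and 2 of the 3 KO libraries lay below all WT libraries (log2 fold change -0.82 ± 0.55, edgeR adjusted p = 0.901). Cd81 was at 98.9, 56.0, 126 and 109.9 CPM in WT and 118, 157 and 122 CPM in KO LECs, with 0.51 ± 0.36 (adjusted p = 0.930). Ackr4 was at 77.7, 46.9, 2.06 and 97.9 CPM in WT and 69.8, 13.5 and 27.3 CPM in KO LECs, a wide spread in both. Its log2 fold change was -0.54 ± 0.92 (adjusted p = 0.9999). Pi16 was at 5.99, 17.6, 0 and 0.499 CPM in WT and 24.0, 7.12 and 0 CPM in KO LECs, and Dpp4 at 0.0951, 1.23, 1.59 and 0 CPM in WT and 0.279, 3.51 and 0 CPM in KO LECs. Both were close to the floor in some libraries of each genotype, and their SE exceeded 2 on the log2 scale.

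Sox6 was too low in LECs for the filter. It was at 1.05, 0.247, 0.187 and 0.10 CPM in WT LECs, from 16 tags in all, and had no tag in the 3 KO LEC libraries. The ranges did not overlap, as for 9.93% of the genes tested in LECs (3.48% higher and 6.45% lower in KO), and the exact permutation test on log2(CPM + 1) gave p = 0.0571, the smallest that 4 against 3 libraries allow. The highest of the values belonged to WT LEC replicate 1.

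To describe how the markers divide the sorted populations, LECs were compared with IntSCs within each genotype, and these comparisons share libraries with those above. In WT, all 6 genes tested passed, 5 lower and 1 higher in LECs, where 22.6% of 12203 genes passed (10.3% higher and 12.3% lower). In KO, 6 of 7 passed, again 5 lower and 1 higher, where 25.9% of 12758 genes passed (9.11% higher and 16.8% lower). Ranges did not overlap for 4 of the 7 genes in WT, all lower in LECs, and for all 7 in KO, with 1 higher and 6 lower. Over all genes tested they did not overlap for 21.1% in WT (9.65% higher and 11.5% lower) and 32.3% in KO (11.4% higher and 20.9% lower). The median log2 fold change of the genes was -3.50 in WT and -3.18 in KO, against -0.04 and -0.21 over all genes tested. These lists are markers of fibroblasts, so a lower level in endothelium is the check of the labels rather than a discovery.

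**Figure D4:**
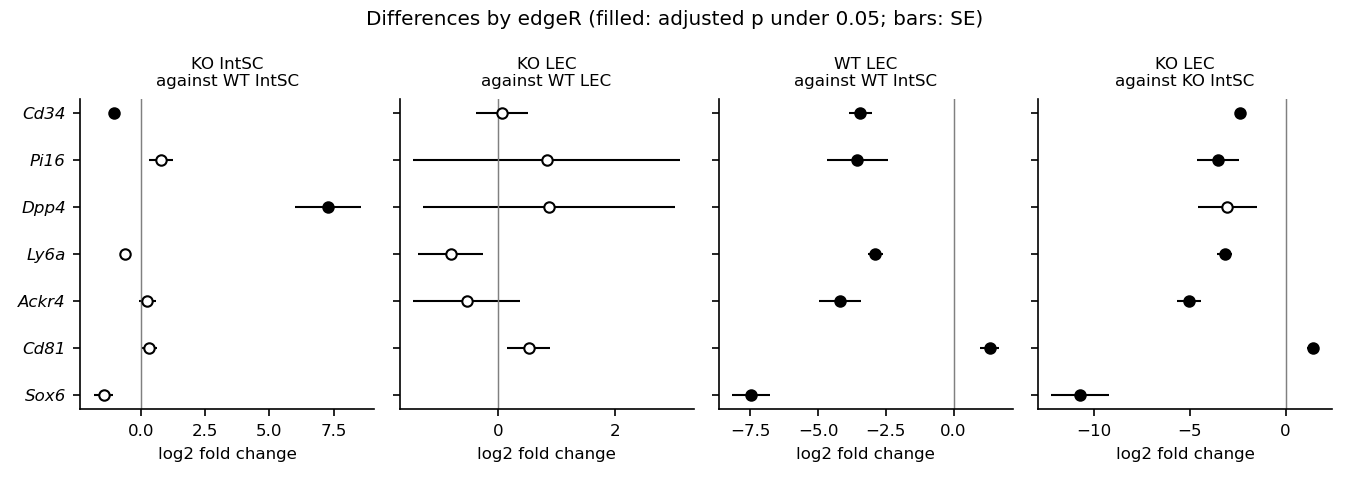
Log2 fold change of each marker gene in 4 comparisons by edgeR, with bars of 1 SE and filled points past an adjusted p of 0.05. Genes without a point were removed by the filter on low counts. In both genotypes 5 genes were lower and Cd81 was higher in LECs.

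Among the markers tested, Sox6 had the lowest log2 fold change in WT, -7.47 ± 0.70 (± SE, adjusted p = 1.47e-06 by edgeR), and in KO it was at least 220-fold lower in LECs, taking the floor of 3 tags over the group of 3 libraries. Ackr4 was lower, at -4.18 ± 0.76 in WT (adjusted p = 0.00114) and -5.06 ± 0.63 in KO (adjusted p = 0.000284). Cd34 was at -3.44 ± 0.41 in WT (adjusted p = 2.48e-05) and -2.39 ± 0.23 in KO (adjusted p = 4.38e-05). All LEC libraries lay below all IntSC libraries of the same genotype for these genes and for Ly6a, which was at -2.89 ± 0.28 in WT (adjusted p = 1.91e-06) and -3.18 ± 0.38 in KO (adjusted p = 0.000203). Without WT LEC replicate 1, the WT values were -8.59 for Sox6, -4.38 for Ackr4, -3.90 for Cd34 and -3.13 for Ly6a, and all 4 still passed.

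Pi16 was lower in LECs, at -3.56 ± 1.13 in WT and -3.54 ± 1.10 in KO (SE, edgeR adjusted p = 0.0344 and 0.0380), and in WT the ranges overlapped. It was close to the threshold, with adjusted p from 0.0228 to 0.0828 in WT and from 0.00482 to 0.0884 in KO when single libraries were left out. In WT the call was lost without WT IntSC replicate 1 (0.0708) or 6 (0.0664) and without WT LEC replicate 1 (0.0652) or 4 (0.0828), and in KO it was lost in 6 of 8 omissions, that is without any 1 of the 5 KO IntSC libraries or without KO LEC replicate 2. Cd81 was higher in LECs by 1.33 ± 0.36 in WT (SE, edgeR adjusted p = 0.0145) and 1.43 ± 0.30 in KO (adjusted p = 0.00648). In WT, WT LEC replicate 2 with 56.0 CPM lay within the IntSC range, and without WT LEC replicate 3 the adjusted p was 0.0513. Cd81 was the only 1 of the 7 whose mean was higher in LECs in both genotypes and passed.

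Dpp4 in WT was near 0 in both cell types, with 28 tags over the LEC libraries and 2 over the IntSC libraries. The exact permutation test on log2(CPM + 1) gave p = 0.124. In KO, all 3 LEC libraries lay below all 5 IntSC libraries, with a log2 fold change of -3.03 ± 1.53 that did not pass (SE, edgeR adjusted p = 0.181). DESeq2 and limma-voom gave adjusted p of 0.0347 and 0.0187, and without KO LEC replicate 2, the library with 3.51 CPM, edgeR gave 0.0212.

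By group means, the order for Cd34 was WT IntSC (1706 CPM), KO IntSC (824 CPM), then WT and KO LEC (157 CPM each, not told apart). For Ly6a it was WT IntSC (517 CPM), KO IntSC (342 CPM), WT LEC (69.6 CPM) and KO LEC (37.7 CPM), and the neighbours of 1 cell type did not differ beyond the test. For Sox6 the means were 74.0, 27.0, 0.395 and 0 CPM in the same order. Ackr4 and Pi16 had KO IntSC first (1219 and 119.9 CPM), then WT IntSC (1024 and 70.5 CPM), with LEC means of 56.1 CPM or less for Ackr4 and 10.4 CPM or less for Pi16. For Cd81 the order was KO LEC (132 CPM), WT LEC (97.7 CPM), KO IntSC (49.1 CPM) and WT IntSC (39.0 CPM), and for Dpp4 it was KO IntSC (10.6 CPM), KO LEC (1.26 CPM), WT LEC (0.731 CPM) and WT IntSC (0.0451 CPM).

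Whether the genotype difference itself differed between cell types was tested as an interaction over all 18 libraries. None of the 7 genes passed, where 1.7% of 14015 genes did (1.42% positive and 0.278% negative) and 2217 had an unadjusted p under 0.05. DESeq2 and limma-voom also called none of the 7. The interaction, coded as the IntSC difference minus the LEC difference, was -1.05 ± 0.45 for Cd34 (SE, edgeR adjusted p = 0.247), 6.57 ± 2.55 for Dpp4 (adjusted p = 0.196) and 3.24 ± 1.36 for Sox6 (adjusted p = 0.239), against a median of 0.24 over all genes tested. That Cd34 and Dpp4 passed in IntSCs and not in LECs is therefore not shown to be a difference between the cell types.

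Within IntSCs, the levels of the 7 genes were related across the 11 libraries after removal of the genotype means. Of 21 pairs, 3 had an exact permutation p under 0.05 and none passed after adjustment over the 21. Cd34 and Ackr4 ran against each other (Pearson r = -0.77, exact permutation p = 0.00633, adjusted p = 0.133, Spearman rho = -0.67, p = 0.0404, adjusted p = 0.243), as WT IntSC replicate 6 had the highest Cd34 and the lowest Ackr4. Without WT IntSC replicates 1 and 6, those farthest from the median of Cd34, r was -0.62. Ly6a and Ackr4 also ran against each other (r = -0.65, exact permutation p = 0.0402, adjusted p = 0.194, rho = -0.66, p = 0.0382, adjusted p = 0.243), and r was -0.36 without WT IntSC replicates 5 and 6. Dpp4 and Ly6a did likewise (r = -0.63, exact permutation p = 0.0458, adjusted p = 0.194, rho = -0.58, p = 0.0694, adjusted p = 0.243), and r was -0.36 without KO IntSC replicates 1 and 5. Since Dpp4 had no tag in 5 of the 6 WT libraries, its r with Ly6a rests mainly on the 5 KO libraries. Many of the permuted orders then give the same r. With the genotype means kept in, r was -0.60 for the first of these pairs, -0.58 for Ly6a with Ackr4 and -0.81 for Dpp4 with Ly6a, the last across genotypes that differ in Dpp4.

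The genes most like each marker over these 11 libraries were found among 10570 genes with a mean of at least 5 CPM. The values share libraries and depth, and they describe likeness only. Each is among the 3 highest of many r over few libraries, so high values can arise by chance, which was not tested. Cd34 was nearest to Dnm3, Myo1h and Kctd10 (r of 0.94, 0.92 and 0.92), and Ackr4 to Slc27a3, Mgp and Sec62 (0.96, 0.92 and 0.92). Pi16 was nearest to U2surp, Hadha and Tmem263 (0.91, 0.91 and 0.88), and Ly6a to Apol6, Zfc3h1 and Tvp23b (0.86, 0.84 and 0.82). Cd81 was nearest to Gjb1, Ints7 and Pitpnm1 (0.92, 0.91 and 0.90), and Sox6 to Ctu1, A430078I02Rik and Dnmt3l (0.97, 0.95 and 0.93). No marker stood among the 3 nearest genes of another marker. Dpp4 had a mean under 5 CPM over the IntSC libraries and was left out.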

How the data were processed

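RNA was measured in 18 QuantSeq 3′ libraries. The authors deposited raw read counts per gene symbol, 1 table per library with 23282 rows, in which 35 symbols on several rows were summed to give 23238. The submitters' processing notes name Bowtie2, edgeR and build mm10, and the study's methods name TopHat and Cufflinks; the counting program and the annotation are not given in the sources used here. Groups and replicate numbers came from sample titles.

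Counts were tested with edgeR 4.0.16 (R 4.3.3): TMM factors, filterByExpr, robust quasi-likelihood fits of the 2 groups compared (all 4 for the interaction), Benjamini-Hochberg adjustment over all genes and a threshold of 0.05. Levels are CPM with TMM factors over all 18 libraries. Genes removed by the filter were compared by two-sided exact permutation of log2(CPM + 1). Pair correlations used all 86400 orders within genotype. The procedure was tested on simulated data. Total counts per library (5361250 to 10549233) set the precision. Alternatives were DESeq2 1.42.0, limma-voom (limma 3.58.1), other scalings and filters, a replicate block, all groups in 1 fit and each library left out.

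The marker genes and the lists were chosen with earlier results of these data known. Named genes were all 7 markers, niche-list genes past the threshold in IntSCs (failing that, the 2 smallest p per list), Grem1, Pdgfra, Bmp7, Foxl1, Lats1, Lats2, Pdgfrb and the 3 most similar genes per marker, with list checks (Lyz1, Kcnj8) added after their values were seen. Glial markers (4 genes) summed to 5.17 to 26.3 CPM in WT and 0.654 to 14.5 CPM in KO IntSCs, pericyte markers (6) to 242 to 457 and 219 to 504 CPM, smooth muscle markers (6) to 1037 to 1802 and 1252 to 2336 CPM, and mesothelial markers (4) to at most 13.1 and 5.36 CPM. Promoters came from RefSeq and positions from GENCODE vM21, both of GRCm38, the assembly that mm10 names.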

Additional observations from a re-analysis of the deposited data

Results flagged for a closer look

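Of 36 sets of 4 to 6 libraries examined (the 7 markers and 5 marker lists in each group of at least 4), 8 had 1 library far from the rest. About 1 in 20, or 1.8, would be given by chance for values spread evenly away from the floor. Some sets held values at or near 0, such as Dpp4 in WT IntSCs, and for them this rate does not hold. Dpp4 was at 0.271 CPM in WT IntSC replicate 3 and had no tag in the other 5. Sox6 was at 1.05 CPM in WT LEC replicate 1, next to 0.247 CPM in the following library. The same library had a pan-fibroblast sum of 1952 CPM, next to 628 CPM. The enterocyte genes summed to 103 CPM in WT IntSC replicate 6, next to 16.5 CPM. The Paneth genes summed to 0.740 CPM in WT LEC replicate 2. The leukocyte genes summed to 22.0 CPM in WT IntSC replicate 2 (next 8.06 CPM), to 17.4 CPM in KO IntSC replicate 4 (next 6.03 CPM) and to 23.7 CPM in WT LEC replicate 2 (next 2.00 CPM).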

How the results depend on the processing

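Of 659 values of the 7 genes under alternatives, 600 kept direction and side of the threshold, 23 lost the call, 11 gained one and 25 changed sign. The cause of these changes was not tested.

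In IntSCs, where edgeR called 183 genes and 2 of the 7, DESeq2 called 376 and 4, all 4 groups in 1 fit 27 and 0, and scaling to the pan-fibroblast list 389 and 1. Leaving out 1 library gave 99 (without KO IntSC replicate 3) to 186 genes and 2 to 3 of the 7. In LECs, where 7 genes passed, DESeq2 called 309, limma-voom 18, the fit of every gene with a read 32, the fit of genes averaging 10 counts or more 20, and all 4 groups in 1 fit 538, with 1 of the 7 (Sox6, -4.69, adjusted p = 0.0499). Leaving out 1 library gave 0 to 16. For the interaction (238 genes), DESeq2 called 1023 and limma-voom 140, and leaving out 1 library gave 161 to 461.

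Replicate numbers are shared by the groups, and r between same-numbered libraries was -0.0616 to 0.0580 over the 4 pairs of groups. Outside the pair of WT IntSC and WT LEC, 1 library per pair correlated best with its own number, and these libraries were taken to share a number only. With the replicate block the counts were 122 in IntSCs, 3 in LECs, 1596 for WT and 895 for KO cell types (with 3 of the 7) and 16 for the interaction. Among libraries of WT IntSC and WT LEC, 4 of 4 correlated best with their own number. Their same-number r was 0.0186 to 0.0407 (mean 0.0291, against -0.00581 for other numbers). A pairing of these 2 groups is therefore not excluded, and their main fit was unpaired. With the block, Dpp4 in IntSCs had an adjusted p of 0.0616 and Sox6 one of 0.0364.

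Signs changed only where no call was made. For KO against WT LECs, Cd34 was at -0.0187 with the block, -0.000575 with all 4 groups in 1 fit and -0.17 to 0.52 with libraries left out. Pi16 ranged from -0.68 to 2.30 and Dpp4 from -2.24 to 1.44 with libraries left out, Dpp4 was at -0.0867 with the block, and Ackr4 at 0.0342 by limma-voom and 0.43 with the block. In the interaction, Pi16 was at 0.40 by limma-voom and -1.48 to 1.49 with libraries left out, Ly6a ranged from -0.052 to 0.58 and Cd81 from -0.25 to 0.14, and the block gave -0.0581 for Ackr4 and 0.34 for Cd81. Depth limits Dpp4 and Sox6 in LECs and Dpp4 in WT IntSCs, where few tags were counted.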
